A study of Mus musculus with 39 samples.

Results

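The genes described here carry sugar into the cell, break it down by glycolysis to pyruvate and lactate, or pass it through the pentose phosphate pathway. They are 36 mouse genes taken by symbol as members of these pathways: 5 hexose transporters, 3 hexokinases, 7 enzymes of upper glycolysis, 3 enzymes that set the balance of fructose phosphates, 6 enzymes of lower glycolysis, 4 genes of lactate handling, 3 of the oxidative and 4 of the non-oxidative pentose phosphate pathway, and ketohexokinase. They matched 37 of the 53379 gene identifiers in the count table, because Aldoa has 2 identifiers, and all 37 passed the filter on low counts. RNA was sequenced from microglia, the macrophages of the brain parenchyma, and from border-associated macrophages (BAM), which sit in the membranes and spaces around it, both sorted from brains of C57Bl/6 embryos of time-mated mice. Microglia were collected at E10.5 (n = 4), E11.5 (n = 3), E12.5 (n = 3), E14.5 (n = 2), E16.5 (n = 3) and E18.5 (n = 4), where E is the embryonic day. The BAM groups held 4, 3, 3, 3, 3 and 4 libraries at the same stages. No allele, transgene or treatment is named for any group, and the labels give neither the surface markers of the sort nor whether libraries came from separate litters, so p-values measure the spread between these libraries, which may be technical.

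Glycolysis splits glucose into pyruvate and yields ATP and NADH without oxygen, and lactate dehydrogenase regenerates NAD+ by turning pyruvate into lactate, which leaves the cell through monocarboxylate transporters. The pentose phosphate pathway branches off at glucose 6-phosphate, makes NADPH in its oxidative arm and exchanges sugar phosphates with glycolysis in its non-oxidative arm. In macrophages NADPH feeds both antioxidant defence and the oxidase that makes superoxide. Several of these genes are textbook targets of hypoxia-inducible factor, and Slc2a5, which encodes the fructose transporter GLUT5, is widely used as a marker of microglia in the brain.

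Library totals ran from 10692763 to 47182711 counts, with a median of 22395273. Library numbers fall into 2 series, which are all that the labels give of a batch. All libraries of E10.5 and E11.5 and replicate 1 of each population at E18.5 are in the R10 series (16 libraries), and the other 23 are in the R8 series. A change between E11.5 and E12.5 therefore cannot be told apart from the series, and the comparisons used below are E11.5 against E10.5 (all R10), E18.5 against E10.5 and E18.5 against E12.5. E18.5 against E10.5 crosses the series for every E18.5 library but replicate 1, and values within R10 are given for some members only. At E18.5 both series are present, but R10 has only 1 library of each population there. In edgeR's quasi-likelihood test that design called 0 of the 37 identifiers and 38 of 24116 genes (0.158%), with 6 and 2853 at an unadjusted p under 0.05, so it can show little about the series. The smallest adjusted p among the 37 was for Rpe, 0.61 ± 0.14 higher in R10 on the log2 scale (adjusted p = 0.0594). The 10 BAM markers, led by Mrc1, F13a1 and Stab1, summed to 12917 to 40376 CPM in BAM and 2192 to 10223 CPM in microglia. The 10 microglia markers, led by Fcrls and Cx3cr1, summed to 3631 to 4829 CPM in microglia and 3005 to 3423 CPM in BAM at E10.5, and to 22649 to 27223 CPM against 4850 to 5722 CPM at E18.5. The other marker lists were lower: over all libraries erythroid markers summed to 45.2 to 751 CPM, mesenchymal and mural markers to 4.52 to 739, endothelial markers to 55.1 to 414, monocyte markers to 15.0 to 179, granulocyte and mast cell markers to 1.67 to 114 and lymphoid markers to at most 2.77. At E10.5 the mean sum of monocyte markers was 156 CPM in microglia and 49.5 CPM in BAM. That of granulocyte and mast cell markers was 75.1 and 6.95 CPM. At E18.5 BAM had the higher means, with 52.8 CPM in microglia and 117 CPM in BAM for monocyte markers. For granulocyte and mast cell markers they were 6.52 and 24.1 CPM. The part of such RNA in the levels of the members was not tested. The 10 general macrophage markers, led by Csf1r, summed to 6678 to 18701 CPM. Levels are CPM, a gene's counts per 1000000 counts of the library, errors after levels are standard deviations over libraries, and values in lists follow the replicate numbers.

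The summed share of these genes was highest at E10.5 and lower at every later stage in both populations. In microglia the 37 identifiers together held 2.51% ± 0.0877 of all counts at E10.5, 1.60% ± 0.215 at E11.5, 1.35% ± 0.121 at E12.5, 1.24% ± 0.0167 at E14.5, 1.08% ± 0.133 at E16.5 and 1.31% ± 0.125 at E18.5. In BAM the share went from 2.12% ± 0.0275 at E10.5 through 1.29% ± 0.075, 1.01% ± 0.0369, 0.813% ± 0.0278 and 0.865% ± 0.0312 to 0.811% ± 0.0432 at E18.5. The libraries of BAM lay below those of microglia at E10.5 and from E12.5 on, and at E11.5 the lowest microglia library and the highest BAM library were both at 1.37%. Not every step followed the sum. Lower glycolysis, its largest part, went from 11331 CPM at E10.5 to 5292 CPM at E18.5 in microglia and from 9909 to 3357 CPM in BAM. The hexokinases went from 391 to 604 CPM and from 428 to 533 CPM, and the hexose transporters from 522 to 674 CPM and from 404 to 276 CPM. In bulk samples fewer cells of a type and less RNA per cell cannot be told apart.

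**Figure D1:**
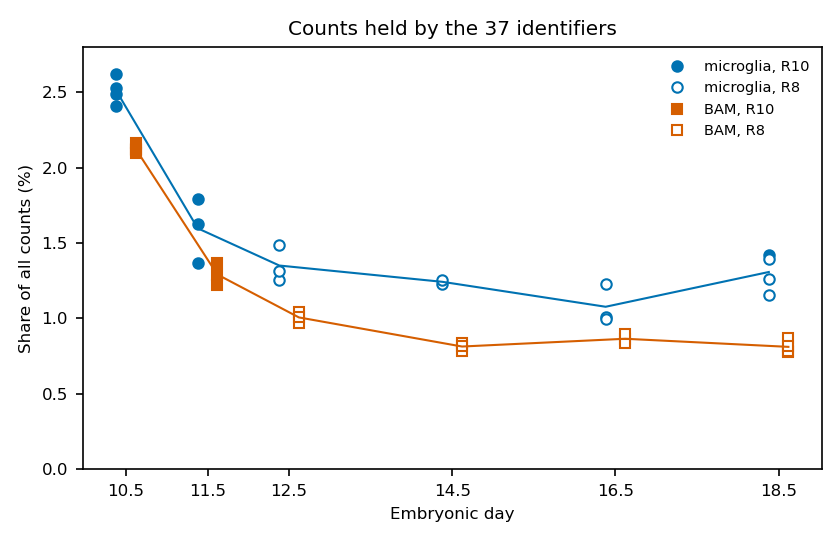
Share of all counts held by the 37 identifiers (vertical axis, percent) at each embryonic day (horizontal axis). Circles are microglia libraries and squares BAM libraries, filled for series R10 and open for R8, and lines join group means, which go from 2.51% to 1.31% in microglia and from 2.12% to 0.811% in BAM.

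BAM had less of most of these transcripts than microglia. For the mean over the 6 stages, 20 of the 37 identifiers were lower and 8 higher in BAM (28 called at an adjusted p under 0.05, against 28.2% of the 22061 genes tested, 13.7% higher), with a median log2 difference of -0.35 over the 37 and -0.02 over all genes. The percentages of all genes, here and below, take in every gene that passed the filter, at any level. They were not matched to the levels of the members, many of which are abundant. The part of abundance in the numbers of calls and of non-overlapping libraries was not tested. A negative log2 value means lower in BAM, and errors after log2 values are standard errors from the fit. At E10.5, 3 identifiers were lower and 2 higher in BAM, where 4.48% of all genes were called (2.16% lower and 2.32% higher). At E11.5, 10 identifiers were lower and 2 higher in BAM, where 6.66% of all genes were called (3.83% lower and 2.84% higher). At E12.5, 12 identifiers were lower and 3 higher in BAM, where 8.54% of all genes were called (4.42% lower and 4.12% higher). At E14.5, 16 identifiers were lower and 2 higher in BAM, where 7.18% of all genes were called (3.26% lower and 3.93% higher). At E16.5, 9 identifiers were lower and 6 higher in BAM, where 13.8% of all genes were called (6.74% lower and 7.09% higher). At E18.5, 20 identifiers were lower and 2 higher in BAM, where 15.5% of all genes were called (8.75% lower and 6.7% higher). Median log2 differences of the 37 at those stages were -0.25, -0.22, -0.26, -0.52, -0.07 and -0.53, while the medians of all genes lay between -0.09 and 0.01. Hk2, Ldhb and Slc2a6 were called lower at all 6 stages (0.947% of all genes were), none was called higher at all 6 (0.857% of all genes), and 9 identifiers were called at no single stage. The share of all genes called at no stage was not computed. The libraries of the populations did not overlap for 9 of the 37 at E10.5, where 7.43% of all genes did not, for 17 at E11.5 (17.7%), 22 at E12.5 (22.9%), 27 at E14.5 (35.2%), 25 at E16.5 (33.4%) and 23 at E18.5 (21.2%).

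**Figure D2:**
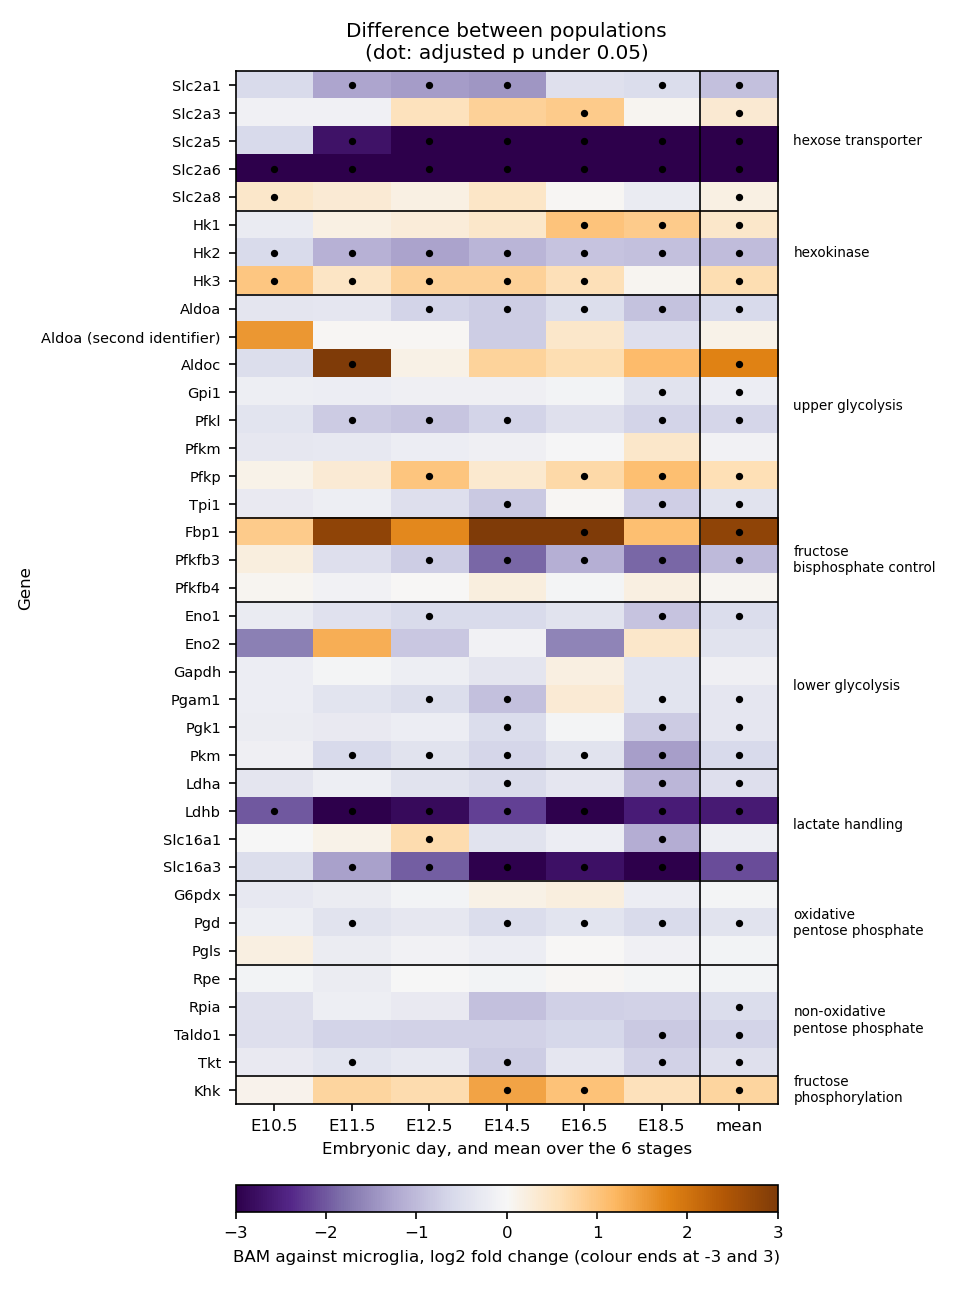
Log2 difference of BAM against microglia (colour, ending at -3 and 3) for each identifier (rows, grouped by role) at each embryonic day and for the mean over 6 stages (columns). A dot marks an adjusted p under 0.05, and Slc2a5, Slc2a6, Ldhb and Slc16a3 form the dark rows that are lower in BAM (-3.34, -4.67, -2.60 and -2.09 for the mean).

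Among the hexose transporters, Slc2a5 rose in microglia and fell in BAM. Its levels in the microglia libraries were 52.8, 95.5, 46.5 and 76.9 CPM at E10.5, 127, 150.1 and 126 CPM at E11.5 and 241, 219 and 155 CPM at E12.5. They went on to 264 and 209 CPM at E14.5, 329.8, 284 and 253 CPM at E16.5 and 431, 339, 299 and 309 CPM at E18.5. The BAM libraries held 46.7, 45.2, 44.9 and 42.6 CPM at E10.5, 19.3, 19.0 and 24.4 CPM at E11.5 and 12.8, 21.0 and 15.2 CPM at E12.5. The remaining BAM libraries held 7.15, 13.4 and 7.77 CPM at E14.5, 29.5, 12.9 and 10.4 CPM at E16.5 and 12.9, 16.8, 14.6 and 20.6 CPM at E18.5. The groups overlapped at E10.5 and at no later stage, and the widest gap of means was at E18.5, with 345 ± 60.3 CPM in microglia against 16.2 ± 3.30 CPM in BAM. The log2 difference was -0.61 ± 0.24 (adjusted p = 0.162) at E10.5, -2.71 ± 0.29 (adjusted p = 3.91e-08) at E11.5 and -4.52 ± 0.28 (adjusted p = 1.16e-14) at E18.5. From E10.5 to E18.5 it rose by 2.41 ± 0.25 (adjusted p = 1.52e-09) in microglia and moved by -1.50 ± 0.25 (adjusted p = 9.2e-06) in BAM, and these changes differed by -3.91 ± 0.35 (adjusted p = 9.92e-10). Within the R10 libraries alone the same values were 2.79 (adjusted p = 2.42e-06) and -1.83 (adjusted p = 0.00195).

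Slc2a6, which encodes GLUT6, a lysosomal member of the family, was low in microglia and near the floor in BAM. Microglia had 41.6, 56.7, 20.7 and 20.0 CPM at E10.5, 13.1, 20.0 and 27.1 CPM at E11.5 and 30.7, 34.4 and 24.5 CPM at E12.5. At later stages microglia had 28.5 and 20.8 CPM at E14.5, 22.4, 19.6 and 11.1 CPM at E16.5 and 13.05, 16.9, 25.0 and 29.4 CPM at E18.5. BAM had 1.22, 2.33, 1.24 and 5.03 CPM at E10.5, 0, 0.0683 and 0.487 CPM at E11.5 and 0.983, 0.0439 and 0.74 CPM at E12.5. At E14.5, E16.5 and E18.5 the BAM libraries stood at 0, 2.68 and 1.96, 2.17, 0.284 and 0.629 and 2.86, 0.0543, 1.24 and 2.45 CPM. Every BAM library lay below every microglia library of its stage. The mean difference was -4.67 ± 0.36 (adjusted p = 5.54e-13), and no change with stage from E10.5 to E18.5 was called in microglia (-0.66 ± 0.65, adjusted p = 0.459) or BAM (-0.59 ± 0.70, adjusted p = 0.548).

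Slc2a1, encoding GLUT1, the widespread basal glucose transporter, was lower in BAM, at -0.93 ± 0.09 (adjusted p = 4.57e-11) for the mean over stages. Its group means in microglia were 202, 160.1, 130.0, 123, 112 and 153 CPM in order of stage, and in BAM 135, 68.2, 50.9, 44.0, 78.3 and 115 CPM, so the level in BAM was lowest at E14.5 and 1.22 ± 0.21 (adjusted p = 7.33e-05) higher at E18.5 than at E12.5 on the log2 scale. Slc2a1 is also abundant in brain endothelium, and in the 4 BAM libraries of E18.5 (78.3, 104, 153 and 126 CPM) the 12 endothelial markers summed to 109, 202, 414 and 409 CPM, against 116 to 158 CPM in BAM at E12.5. None of the 12 was at 0 in either group, and their part in the rise was not tested. The difference at E18.5, -0.53 ± 0.19 (adjusted p = 0.0499), missed the threshold on leaving out any 1 of BAM E18.5 replicates 1, 2 and 4, or microglia E18.5 replicates 1, 3 and 4 (adjusted p = 0.0688 to 0.227). For the mean over stages the other 2 transporters were higher in BAM: Slc2a3, at 0.34 ± 0.11 (adjusted p = 0.0145), and Slc2a8, at 0.18 ± 0.06 (adjusted p = 0.00982). Slc2a3, which encodes the high-affinity glucose transporter GLUT3, showed the largest fall of the transporters: from 163 ± 18.8 CPM to 17.0 ± 4.71 CPM in microglia and from 149 ± 31.2 CPM to 18.9 ± 4.95 CPM in BAM, or -3.20 ± 0.25 (adjusted p = 2.1e-12) and -3.01 ± 0.24 (adjusted p = 7.45e-12). It was already lower in microglia at E11.5 than at E10.5, at -1.12 ± 0.25 (adjusted p = 0.00282). In BAM that change was -1.12 ± 0.25 (adjusted p = 0.00585), and it was lost without BAM E11.5 replicate 1 (adjusted p = 0.0583). Slc2a8, encoding GLUT8, an intracellular sugar transporter, rose from 54.8 to 137 CPM in microglia (1.39 ± 0.12, adjusted p = 3.58e-11) and from 72.8 to 124 CPM in BAM (0.73 ± 0.12, adjusted p = 7.61e-06).

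Set per kilobase of gene length, so that genes can be compared with each other, the make-up of the 5 transporters moved apart between the populations. Slc2a5 made up 15.7% ± 4.25 of their summed level in microglia at E10.5 and 51.3% ± 5.64 at E18.5, against 14.0% ± 1.65 and 6.02% ± 0.921 in BAM. In BAM Slc2a8 took the largest share at E14.5 (64.8% ± 5.48), and at E18.5 Slc2a8 (49.0% ± 5.62) and Slc2a1 (41.0% ± 7.10) stood side by side. Slc2a3 fell from 17.8% ± 2.00 to 1.18% ± 0.261 of the microglial sum and from 21.4% ± 1.20 to 3.36% ± 1.02 of that of BAM. These shares are descriptions, with no test.

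The 3 hexokinases, which trap glucose as glucose 6-phosphate, differed in direction between the populations. Hk2, the inducible mitochondria-bound form, was lower in BAM. Its levels in microglia were 265, 258, 176 and 189 CPM at E10.5, 229, 279 and 287 CPM at E11.5 and 243, 272 and 184 CPM at E12.5. In the later microglia groups they were 226 and 201 CPM at E14.5, 307, 243 and 278 CPM at E16.5 and 322, 277, 309.9 and 281 CPM at E18.5. BAM libraries stood at 193, 173, 115 and 119 CPM at E10.5, 133, 130.0 and 109.7 CPM at E11.5 and 92.8, 97.3 and 96.4 CPM at E12.5. From E14.5 the BAM libraries stood at 92.4, 98.8 and 99.1 CPM at E14.5, 146, 148 and 140.5 CPM at E16.5 and 199.8, 173, 140.0 and 161 CPM at E18.5. The groups overlapped at E10.5, where the difference was -0.57 ± 0.16 (adjusted p = 0.0257), and at no other stage. That E10.5 call was lost on leaving out any 1 of BAM E10.5 replicates 3 and 4, or microglia E10.5 replicates 1 and 2 (adjusted p = 0.114 to 0.133). The mean difference over stages was -0.97 ± 0.07 (adjusted p = 1.95e-13).

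Hk1, the constitutive form bound to mitochondria, fell in microglia from E10.5 to E18.5, and its change in BAM did not pass the test. Microglia held 53.9, 55.5, 46.3 and 45.6 CPM at E10.5, 24.3, 22.1 and 30.9 CPM at E11.5 and 27.0, 18.47 and 23.5 CPM at E12.5. Later they held 27.2 and 32.0 CPM at E14.5, 30.2, 21.0 and 15.999 CPM at E16.5 and 28.05, 18.6, 22.0 and 22.8 CPM at E18.5. In BAM the libraries read 42.1, 30.2, 55.5 and 43.1 CPM at E10.5, 26.5, 26.8 and 35.3 CPM at E11.5 and 32.2, 25.7 and 24.9 CPM at E12.5. Later BAM libraries read 30.5, 37.9 and 44.5 CPM at E14.5, 48.6, 46.2 and 36.4 CPM at E16.5 and 46.4, 42.7, 38.8 and 56.0 CPM at E18.5. The populations overlapped up to E14.5 and not at E16.5 or E18.5. The change from E10.5 to E18.5 was -1.07 ± 0.18 (adjusted p = 1.73e-05) in microglia and 0.08 ± 0.18 (adjusted p = 0.771) in BAM, and the contrast of the changes was 1.15 ± 0.26 (adjusted p = 0.00305). In the R10 libraries alone that contrast was 0.81 (adjusted p = 0.58).

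Hk3, a hexokinase typical of myeloid cells, was higher in BAM by 0.62 ± 0.05 (adjusted p = 1.94e-11) for the mean. It rose from 119 ± 23.9 CPM at E10.5 to 264 ± 43.1 CPM at E11.5 in microglia (1.18 ± 0.13, adjusted p = 5.23e-08) and from 235.4 ± 11.2 CPM to 368 ± 9.07 CPM in BAM (0.67 ± 0.13, adjusted p = 0.000913). At E18.5 it stood at 283 ± 16.6 CPM and 318 ± 17.2 CPM, with a difference of 0.07 ± 0.12 (adjusted p = 0.804). The higher level in BAM was called at the 5 stages before that, of which the E11.5 call (0.46 ± 0.14, adjusted p = 0.0317) was lost on leaving out any 1 of BAM E11.5 replicates 1, 2 and 3, or microglia E11.5 replicates 1 and 2 (adjusted p = 0.0616 to 0.134). Per kilobase Hk3 was the most abundant hexokinase in BAM at every stage, from 68.2% ± 3.48 of the family at E10.5 to 84.9% ± 1.35 at E12.5 and 72.1% ± 1.84 at E18.5. In microglia Hk2 (49.3% ± 8.49) and Hk3 (42.9% ± 8.98) were close at E10.5, and Hk3 led at E18.5 (59.5% ± 0.806).

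**Figure D3:**
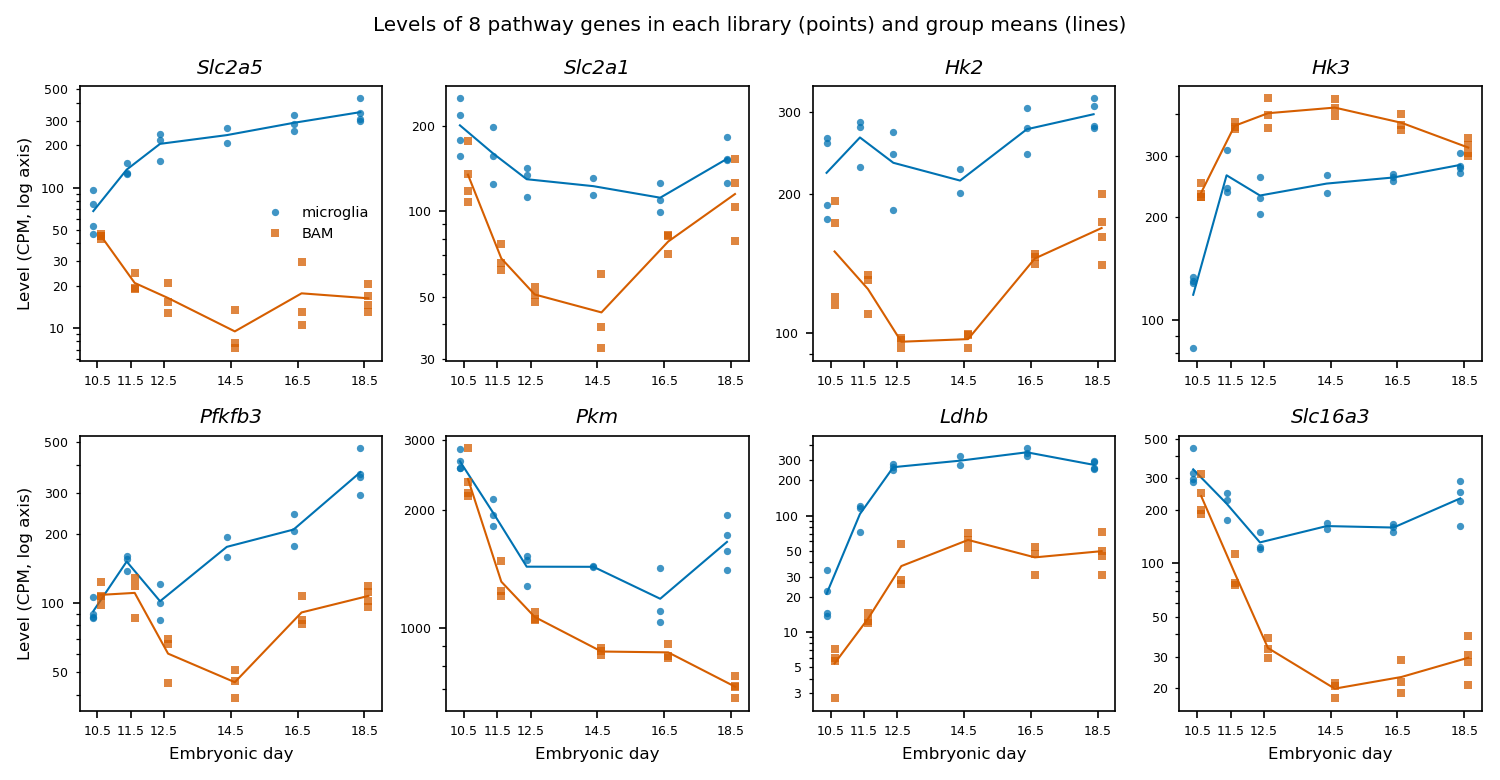
Levels (vertical axes, CPM, log scale) of 8 pathway genes at each embryonic day (horizontal axes). Circles are microglia libraries, squares BAM libraries and lines join group means, and Slc2a5 and Pfkfb3 rise in microglia to 345 and 371 CPM at E18.5 while BAM stand at 16.2 and 107 CPM.

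Pfkfb3 makes fructose 2,6-bisphosphate, the strongest activator of phosphofructokinase. In microglia its level was higher at E11.5 than at E10.5, lower at E12.5 and higher again from E14.5. The step down to E12.5 cannot be told apart from the series. Microglia libraries read 86.2, 87.3, 106 and 89.8 CPM at E10.5, 156, 139 and 160.3 CPM at E11.5 and 100.1, 122 and 84.1 CPM at E12.5. From E14.5 they read 193 and 158 CPM at E14.5, 245, 205 and 177 CPM at E16.5 and 363, 297, 471 and 353 CPM at E18.5. BAM libraries were at 123, 107, 107 and 98.0 CPM at E10.5, 128, 85.8 and 118 CPM at E11.5 and 66.2, 69.5 and 45.2 CPM at E12.5. The later BAM groups were at 51.3, 46.0 and 38.6 CPM at E14.5, 107, 81.4 and 84.6 CPM at E16.5 and 102, 112, 119 and 96.4 CPM at E18.5. At E10.5 the populations overlapped, and from E11.5 every BAM library was below every microglia library. The difference went from 0.22 ± 0.16 (adjusted p = 0.545) at E10.5 to -1.89 ± 0.16 (adjusted p = 3.12e-11) at E18.5. From E12.5 to E18.5 the gene rose by 2.03 ± 0.18 (adjusted p = 2.11e-09) in microglia and 0.89 ± 0.17 (adjusted p = 0.000483) in BAM, and the contrast of the rises was -1.14 ± 0.24 (adjusted p = 0.00494), or -1.10 (adjusted p = 0.0181) without the R10 libraries. Against E10.5 the contrast was -2.12 ± 0.22 (adjusted p = 3.06e-08), and -2.22 (adjusted p = 0.000843) within R10.

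Pfkfb4, a related enzyme of the same family, did not pass the test between populations (0.05 ± 0.07, adjusted p = 0.754). It was at 64.0 ± 10.9 CPM in microglia and 78.9 ± 6.23 CPM in BAM at E18.5. Fbp1, which encodes the gluconeogenic fructose 1,6-bisphosphatase, was low throughout. Microglia had 0.0854, 0.652, 0 and 0.477 CPM at E10.5, 0.222, 0 and 0.225 CPM at E11.5 and 0, 0.66 and 1.44 CPM at E12.5. Later microglia had 0 and 0.29 CPM at E14.5, 0.229, 0 and 0 CPM at E16.5 and 1.10, 0.187, 0 and 0 CPM at E18.5. In BAM it read 0.034, 1.06, 0.467 and 0.767 CPM at E10.5, 1.11, 1.502 and 0.487 CPM at E11.5 and 3.86, 0.439 and 2.79 CPM at E12.5. It then read 8.64, 3.35 and 4.37 CPM at E14.5, 1.75, 1.19 and 4.36 CPM at E16.5 and 0.268, 1.41, 0.707 and 0.8 CPM at E18.5. BAM were above all microglia libraries at E11.5, E14.5 and E16.5 and overlapped them at the other stages. The mean difference was 2.79 ± 0.62 (adjusted p = 0.000588), at levels where a few counts per library decide the value.

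Of the enzymes from glucose 6-phosphate to the triose phosphates, Aldoa, the main aldolase, and Pfkl, the liver-type phosphofructokinase, were lower in BAM, at -0.60 ± 0.06 (adjusted p = 1.64e-09) and -0.64 ± 0.07 (adjusted p = 1.33e-09). Aldoa went from 2371 ± 124 CPM to 989 ± 107 CPM in microglia and from 1870.0 ± 186 CPM to 568 ± 69.8 CPM in BAM. Its second identifier stayed under 2.00 CPM in every group mean. Pfkl was lowest in the middle of the series (258 CPM in microglia at E14.5 and 151 CPM in BAM at E12.5), and from E12.5 to E18.5 it rose by 0.80 ± 0.16 (adjusted p = 0.00071) in BAM. In microglia the same rise, 0.61 ± 0.16 (adjusted p = 0.014), was lost on leaving out any 1 of microglia E12.5 replicates 1, 2 and 3, or microglia E18.5 replicates 1 and 3 (adjusted p = 0.0507 to 0.068). Pfkp, the platelet-type phosphofructokinase, was higher in BAM by 0.60 ± 0.08 (adjusted p = 3.54e-07) and fell in both populations, from 88.1 to 13.4 CPM in microglia (-2.66 ± 0.19, adjusted p = 2.45e-13) and from 97.2 to 30.6 CPM in BAM (-1.70 ± 0.18, adjusted p = 2.32e-09). Tpi1, triose phosphate isomerase, and Gpi1, glucose phosphate isomerase, were lower in BAM, at -0.41 ± 0.07 (adjusted p = 3.53e-05) and -0.19 ± 0.05 (adjusted p = 0.00374). Pfkm, the muscle-type phosphofructokinase, was not called for the mean (-0.10 ± 0.10, adjusted p = 0.592).

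Aldoc, the brain-type aldolase, was low early and rose in both populations. Microglia libraries read 4.70, 4.34, 2.12 and 4.73 CPM at E10.5 and 2.59, 3.86 and 1.19 CPM at E12.5. All 3 microglia libraries of E11.5 had 0 counts. From E14.5 microglia read 9.26 and 20.2 CPM at E14.5, 19.4, 22.1 and 9.82 CPM at E16.5 and 19.3, 25.4, 17.8 and 33.2 CPM at E18.5. BAM libraries read 2.04, 0.564, 4.67 and 4.09 CPM at E10.5, 0.291, 1.84 and 3.98 CPM at E11.5 and 5.48, 2.28 and 1.07 CPM at E12.5. Later BAM libraries read 31.8, 18.51 and 21.7 CPM at E14.5, 22.0, 25.4 and 27.8 CPM at E16.5 and 43.9, 45.0, 58.2 and 77.9 CPM at E18.5. At E11.5 BAM held 158 counts over 3 libraries, which is at least 71.2-fold higher than a floor of 3 counts over the microglia group, a bound that covers counting error only. It would be lower if the reads of a pair were counted separately, which the sources used here do not state. BAM were also above all microglia libraries at E18.5, where the difference was 1.14 ± 0.50 (adjusted p = 0.135). The mean over stages was called (1.78 ± 0.33, adjusted p = 5.24e-05), but it includes the fitted value at E11.5, which is no bound, and no other stage was called. Aldoc rose from E10.5 to E18.5 by 2.64 ± 0.53 (adjusted p = 0.000162) in microglia, 2.40 (adjusted p = 0.11) within R10, and by 4.29 ± 0.57 (adjusted p = 2.59e-07) in BAM. The 14 neural markers, led by Tubb3 and Nes, summed to 61.6 to 272 CPM in the R10 libraries and 187 to 1085 CPM in R8. By stage their mean sum in microglia was 112 CPM at E10.5, 590 at E12.5, 1033 at E14.5 and 298 at E18.5. In BAM it was 88.1, 435, 791 and 433 CPM at those stages. None of the 14 was at 0 in either population at E18.5, and the part of such RNA in the levels of Aldoc, Pfkm and Eno2 was not tested.

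Of the 6 genes of lower glycolysis, from glyceraldehyde 3-phosphate to pyruvate, 4 were lower in BAM for the mean and none was higher. Pkm, encoding pyruvate kinase, which makes pyruvate and ATP, parted most. In microglia it read 2854, 2658, 2552 and 2550.4 CPM at E10.5, 1812, 1938 and 2130.4 CPM at E11.5 and 1277, 1492 and 1528 CPM at E12.5. The later microglia libraries read 1425 and 1437 CPM at E14.5, 1036, 1102 and 1423 CPM at E16.5 and 1934, 1403, 1719.6 and 1566 CPM at E18.5. BAM read 2862, 2349, 2201 and 2164 CPM at E10.5, 1209, 1242 and 1484 CPM at E11.5 and 1048, 1056 and 1098 CPM at E12.5. From E14.5 BAM read 887, 875 and 853 CPM at E14.5, 841, 848 and 913 CPM at E16.5 and 707, 664, 757 and 712 CPM at E18.5. The groups overlapped at E10.5 and at no later stage. The difference was -1.33 ± 0.12 (adjusted p = 5.78e-11) at E18.5. The fall from E10.5 to E18.5 was -0.61 ± 0.12 (adjusted p = 6.28e-05) in microglia and -1.78 ± 0.12 (adjusted p = 7.63e-14) in BAM, a contrast of -1.17 ± 0.16 (adjusted p = 4.03e-06) that stood at -1.46 (adjusted p = 0.00319) within R10. The contrast from E12.5 was -0.92 ± 0.18 (adjusted p = 0.00172).

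Eno1, the ubiquitous enolase, was among the most abundant members. It went from 4093 ± 219 CPM to 1262 ± 245 CPM in microglia (-1.63 ± 0.15, adjusted p = 1.15e-10) and from 3481 ± 136 CPM to 739 ± 7.64 CPM in BAM (-2.26 ± 0.15, adjusted p = 1.22e-13). Pgk1, phosphoglycerate kinase, the first ATP-yielding step, went from 776 to 293 CPM in microglia (-1.34 ± 0.12, adjusted p = 5.96e-11) and from 672 to 182 CPM in BAM (-1.91 ± 0.12, adjusted p = 3.09e-14). Pgam1, phosphoglycerate mutase, was lower in BAM, at -0.35 ± 0.06 (adjusted p = 7.44e-06), although at E16.5 all BAM libraries lay above all microglia libraries (a difference of 0.32 ± 0.14 (adjusted p = 0.153)). Gapdh, often used as a reference gene, was not called between populations (-0.16 ± 0.08, adjusted p = 0.173) but fell from E10.5 to E18.5, at -0.80 ± 0.18 (adjusted p = 0.000712) in microglia and -0.98 ± 0.18 (adjusted p = 5.95e-05) in BAM. Eno2, the neuronal enolase, stayed at or under 4.24 CPM in every group mean and was not called between populations (-0.42 ± 0.58, adjusted p = 0.745). Related copies could share reads with these genes, and how reads with several matches were counted was not tested. Eno1b reached at most 5.66 CPM in a library, Gapdhs 2.12, Aldoart2 1.24 and Ldhc 0.392, Aldoart1 lay between Gapdhs and Eno1b, and Pgk2 was at 0.

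In lactate handling the 2 subunits of lactate dehydrogenase moved in opposite directions. Ldha, the muscle-type subunit typical of lactate-making cells, fell from 4443 ± 363 CPM to 1447 ± 209 CPM in microglia (-1.55 ± 0.13, adjusted p = 7.57e-12) and from 3469 ± 114 CPM to 759.9 ± 36.01 CPM in BAM (-2.22 ± 0.13, adjusted p = 4.01e-15). Ldhb, the heart-type subunit typical of lactate-using cells, rose. In microglia Ldhb read 13.8, 34.4, 14.6 and 22.4 CPM at E10.5, 116, 121 and 72.7 CPM at E11.5 and 259.8, 275 and 245 CPM at E12.5. From E14.5 it read 321 and 270.2 CPM at E14.5, 342, 327 and 377 CPM at E16.5 and 249.95, 258, 294 and 288 CPM at E18.5. In BAM it read 2.72, 5.67, 5.99 and 7.16 CPM at E10.5, 14.49, 12.05 and 12.496 CPM at E11.5 and 56.7, 25.7 and 28.2 CPM at E12.5. The later BAM groups read 53.2, 61.7 and 70.4 CPM at E14.5, 54.0, 46.7 and 30.6 CPM at E16.5 and 31.2, 44.9, 49.9 and 71.9 CPM at E18.5. All BAM libraries were below all microglia libraries at each of the 6 stages. The mean difference was -2.60 ± 0.12 (adjusted p = 9.43e-19). From E10.5 to E18.5 Ldhb rose by 3.74 ± 0.28 (adjusted p = 9.82e-13) in microglia and 3.18 ± 0.28 (adjusted p = 5.06e-11) in BAM, or 3.67 (adjusted p = 1.43e-05) and 2.51 (adjusted p = 0.000821) within R10, and the contrast of the rises was not called (-0.57 ± 0.37, adjusted p = 0.457). Per kilobase Ldhb went from 1.02% ± 0.524 to 28.6% ± 3.54 of the summed level of both subunits in microglia, with its highest share at E16.5 (40.8% ± 3.57), and from 0.325% ± 0.109 to 12.003% ± 3.78 in BAM.

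The lactate exporter Slc16a3 (MCT4) fell steeply in BAM, and its change in microglia from E10.5 to E18.5 missed the threshold. Microglia libraries held 441, 320.0, 285 and 298 CPM at E10.5, 175, 227 and 247 CPM at E11.5 and 123, 149.7 and 121 CPM at E12.5. At later stages they held 167 and 156 CPM at E14.5, 166, 150.2 and 159.9 CPM at E16.5 and 289.9, 161, 251 and 223 CPM at E18.5. BAM libraries held 318, 247, 188 and 199 CPM at E10.5, 77.3, 75.2 and 113 CPM at E11.5 and 29.5, 38.1 and 33.2 CPM at E12.5. BAM then held 21.5, 17.6 and 20.6 CPM at E14.5, 28.7, 21.8 and 18.9 CPM at E16.5 and 27.997, 20.8, 38.98 and 30.8 CPM at E18.5. The groups overlapped at E10.5 only. The difference was -0.50 ± 0.19 (adjusted p = 0.146) at E10.5 and -3.08 ± 0.21 (adjusted p = 1.35e-13) at E18.5. In a fit that took adjacent library numbers as blocks, described in the closing section, the E10.5 difference was called. The fall in BAM from E10.5 to E18.5 was -3.04 ± 0.21 (adjusted p = 1.8e-13) and the change in microglia -0.47 ± 0.19 (adjusted p = 0.0569), with a contrast of -2.57 ± 0.28 (adjusted p = 4.29e-08) and of -3.03 (adjusted p = 0.00139) within R10. Against E12.5 the contrast, -1.13 ± 0.30 (adjusted p = 0.0334), was lost on leaving out any 1 of BAM E12.5 replicates 2 and 3, or BAM E18.5 replicates 2 and 4, or microglia E12.5 replicates 1 and 3, or microglia E18.5 replicates 1 and 3 (adjusted p = 0.0538 to 0.128).

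Slc16a1 (MCT1), a monocarboxylate transporter that works in both directions, was lower at E18.5 than at E10.5 in both populations. In microglia it was higher at E18.5 than at E12.5, but its E18.5 libraries (52.2 to 71.3 CPM) stayed below those of E10.5 (98.4 to 165 CPM). The step from E11.5 down to E12.5 cannot be told apart from the series. Microglia read 165, 98.4, 118 and 112 CPM at E10.5, 61.2, 59.0 and 90.6 CPM at E11.5 and 27.0, 30.9 and 30.5 CPM at E12.5. Then microglia read 44.1 and 38.9 CPM at E14.5, 41.9, 30.6 and 37.6 CPM at E16.5 and 71.3, 61.4, 52.2 and 60.2 CPM at E18.5. Among BAM libraries the values were 152, 140.0, 88.2 and 109.9 CPM at E10.5, 72.6, 96.0 and 63.5 CPM at E11.5 and 49.1, 41.6 and 47.2 CPM at E12.5. The values were 32.6, 28.7 and 27.3 CPM at E14.5, 24.6, 34.4 and 33.9 CPM at E16.5 and 35.99, 26.3, 26.4 and 30.0 CPM at E18.5 in later BAM. BAM lay above microglia at E12.5 and below at E14.5 and E18.5, and overlapped them at the other stages. The E12.5 difference, 0.65 ± 0.21 (adjusted p = 0.0445), was lost on leaving out any 1 of BAM E12.5 replicates 1, 2 and 3, or microglia E12.5 replicates 1, 2 and 3 (adjusted p = 0.0736 to 0.162). At E18.5 the difference was -1.15 ± 0.18 (adjusted p = 9.26e-06). From E12.5 to E18.5 the gene rose by 1.22 ± 0.20 (adjusted p = 7.55e-05) in microglia and moved by -0.58 in BAM, with a contrast of -1.80 ± 0.28 (adjusted p = 0.000108) and of -1.79 (adjusted p = 0.000259) without the R10 libraries. The move in BAM itself (adjusted p = 0.0497) was lost on leaving out any 1 of BAM E12.5 replicates 1, 2 and 3, or BAM E18.5 replicates 2, 3 and 4 (adjusted p = 0.07 to 0.131). Per kilobase Slc16a3 made up 75.3% ± 4.84 of the 2 transporters in microglia and 45.1% ± 7.37 in BAM at E18.5.

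**Figure D4:**
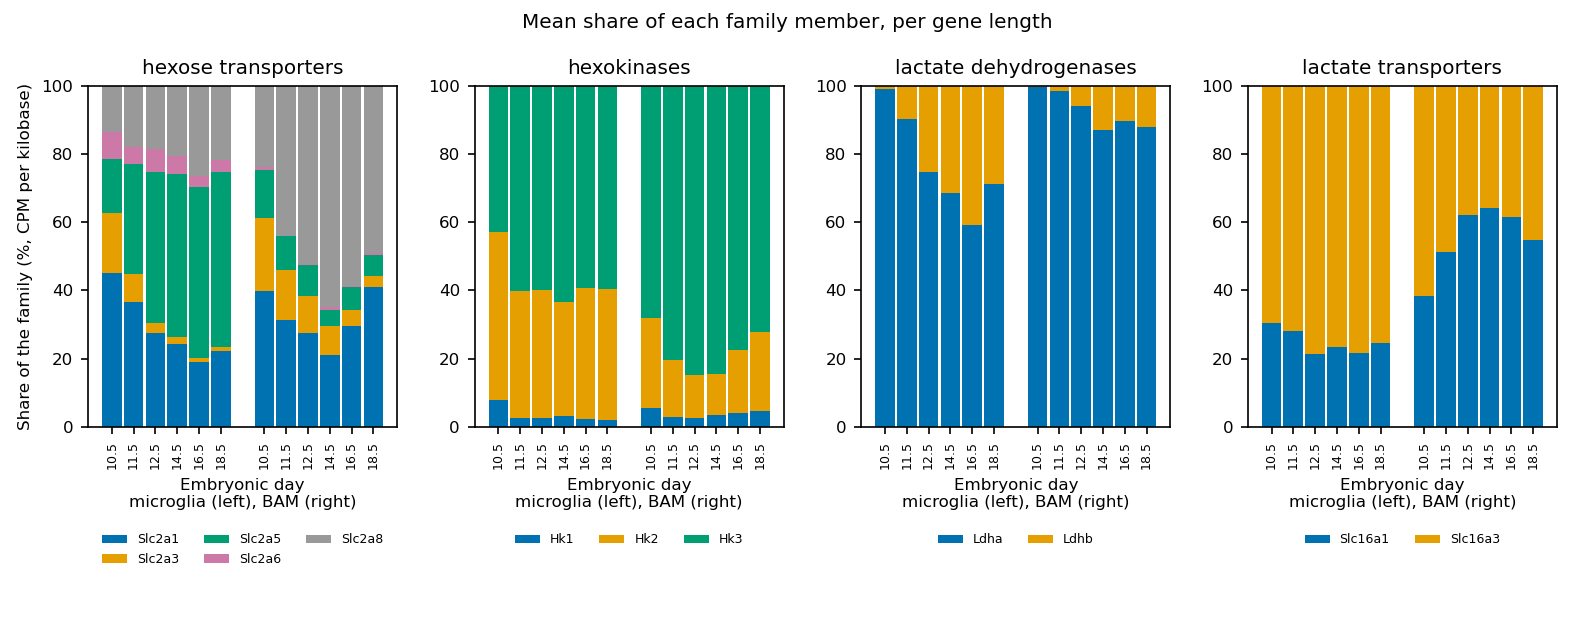
Mean share (vertical axis, percent of the family's summed CPM per kilobase) of each member of 4 families, with microglia in the left and BAM in the right block of each panel and embryonic days along the horizontal axis. At E18.5 Slc2a5 holds 51.3% of the transporters in microglia and 6.02% in BAM, and Ldhb 28.6% and 12.003% of lactate dehydrogenase.

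From E10.5 to E18.5 in BAM, Ldha, Slc16a1, Slc16a3, Pgk1 and Eno1 fell, Ldhb rose and the change of Hk2 was not called (0.14 ± 0.16, adjusted p = 0.518). Promoter stretches of these genes are printed below, as examples with and without the hypoxia response core. They were chosen after their values were seen. They come from RefSeq on GRCm38.p6, from up to 250 bases upstream of the annotated start, without annotated exons, 5′ to 3′ on the gene's strand. Capitals mark ACGTG, the core of the hypoxia response element, read on either strand, so that CACGTG, the E-box, matches on both. The stretches are chr7:46845554-46845803 and chr11:120948817-120949052 on the plus strand, which lie in introns of longer annotated transcripts of those genes, chrX:106186850-106187099, chr3:104638414-104638663 and chr4:150236458-150236707 on the plus strand and chr6:142507958-142508207 and chr6:82774455-82774704 on the minus strand.
Ldha: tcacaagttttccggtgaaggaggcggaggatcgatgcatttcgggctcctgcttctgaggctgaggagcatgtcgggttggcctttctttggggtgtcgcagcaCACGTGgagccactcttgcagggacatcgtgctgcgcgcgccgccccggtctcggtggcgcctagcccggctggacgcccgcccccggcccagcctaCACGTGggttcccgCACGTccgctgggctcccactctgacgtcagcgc
Pgk1: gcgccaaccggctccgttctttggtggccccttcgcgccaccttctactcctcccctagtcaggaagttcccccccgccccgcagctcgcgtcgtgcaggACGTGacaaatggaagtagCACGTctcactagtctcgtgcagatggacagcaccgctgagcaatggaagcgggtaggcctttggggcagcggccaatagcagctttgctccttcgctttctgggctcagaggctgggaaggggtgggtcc
Slc16a1: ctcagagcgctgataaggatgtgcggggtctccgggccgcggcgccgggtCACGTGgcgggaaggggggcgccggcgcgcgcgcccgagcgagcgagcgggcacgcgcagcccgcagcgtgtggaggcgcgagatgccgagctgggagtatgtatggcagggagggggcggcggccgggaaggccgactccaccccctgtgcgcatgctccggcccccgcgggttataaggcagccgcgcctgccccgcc
Slc16a3: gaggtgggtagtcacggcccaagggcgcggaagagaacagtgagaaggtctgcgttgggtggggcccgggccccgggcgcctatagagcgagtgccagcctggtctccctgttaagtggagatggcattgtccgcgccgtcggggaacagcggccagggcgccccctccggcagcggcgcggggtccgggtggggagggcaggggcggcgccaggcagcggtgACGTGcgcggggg
Ldhb: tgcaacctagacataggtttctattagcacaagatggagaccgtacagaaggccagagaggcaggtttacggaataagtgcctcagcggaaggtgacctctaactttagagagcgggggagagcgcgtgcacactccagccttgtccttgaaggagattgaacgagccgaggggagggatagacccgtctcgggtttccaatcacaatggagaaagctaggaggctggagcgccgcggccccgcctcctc
Eno1: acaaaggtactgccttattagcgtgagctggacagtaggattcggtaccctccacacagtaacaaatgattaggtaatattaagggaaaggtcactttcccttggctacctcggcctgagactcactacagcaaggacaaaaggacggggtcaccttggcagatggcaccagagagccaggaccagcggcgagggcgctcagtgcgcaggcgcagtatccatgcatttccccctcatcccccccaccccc
Hk2: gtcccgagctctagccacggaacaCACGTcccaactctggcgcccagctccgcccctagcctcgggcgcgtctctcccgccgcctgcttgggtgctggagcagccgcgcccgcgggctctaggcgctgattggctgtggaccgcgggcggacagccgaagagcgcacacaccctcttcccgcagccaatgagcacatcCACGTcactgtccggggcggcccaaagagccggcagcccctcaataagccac
Ldha held the motif at 3 places (5 matches over both strands), Pgk1 at 2, Slc16a1 at 1, Slc16a3 at 1 and Hk2 at 2, and the letters did not occur in the stretches of Ldhb and Eno1. Over whole windows of 250 bases, 11 of the 35 members with an entry held ACGTG (31.4%), against 16.6% of 27025 mouse promoters, and 4 of 35 held CACGTG (11.4%, against 6.05%). ACGTG occurred in 5 of the 20 members with an entry that fell in BAM from E10.5 to E18.5, in 3 of the 9 that rose and in 3 of the 6 that were not called. GAGGAA, the core of the box bound by the macrophage factor PU.1, occurred in 8 of 35 (22.9%, against 23.1%). A match describes the letters and is neither a site shown to be bound nor a cause.

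In the oxidative pentose phosphate arm, G6pdx, the entry enzyme and a source of NADPH, did not pass the test between populations (-0.07 ± 0.05, adjusted p = 0.342) and fell in both, from 357 ± 29.5 CPM to 146 ± 6.62 CPM in microglia (-1.23 ± 0.10, adjusted p = 1.28e-11) and from 295 ± 26.3 CPM to 137 ± 14.6 CPM in BAM (-1.13 ± 0.10, adjusted p = 7.45e-11). Pgd, the second NADPH-making enzyme, was lower in BAM, at -0.40 ± 0.05 (adjusted p = 5.36e-08) and fell from 532 to 316 CPM and from 476 to 227 CPM. Pgls, the lactonase between them, rose from 49.1 to 84.1 CPM in microglia (0.83 ± 0.17, adjusted p = 0.000261). In BAM it went from 56.8 to 82.4 CPM (0.52 ± 0.17, adjusted p = 0.0183), a call that was lost on leaving out any 1 of BAM E10.5 replicates 1 and 2, or BAM E18.5 replicate 2 (adjusted p = 0.0666 to 0.0894).

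In the non-oxidative arm Tkt, transketolase, and Taldo1, transaldolase, which carry sugar phosphates back to glycolysis, were lower in BAM, at -0.46 ± 0.05 (adjusted p = 1.32e-09) and -0.66 ± 0.09 (adjusted p = 3.39e-07). All BAM libraries lay below all microglia libraries at each stage for Tkt, which went from 799.7 ± 24.0 CPM to 349.6 ± 16.8 CPM in microglia and from 672 ± 52.0 CPM to 232 ± 7.89 CPM in BAM. Rpia, ribose phosphate isomerase, was low (group means of 3.01 to 7.54 CPM), and its mean difference of -0.54 ± 0.16 (adjusted p = 0.0112) was lost without microglia E14.5 replicate 2 (adjusted p = 0.106). Rpe, ribulose phosphate epimerase, was not called between populations (-0.07 ± 0.07, adjusted p = 0.574). Khk, ketohexokinase, which phosphorylates the fructose that transporters such as GLUT5 bring in, was higher in BAM, where Slc2a5 was lower. The mean difference was 0.76 ± 0.10 (adjusted p = 1.16e-07), and it rose from 26.2 ± 2.78 CPM to 55.5 ± 15.1 CPM in microglia (1.14 ± 0.22, adjusted p = 6.68e-05) and from 28.6 ± 9.73 CPM to 87.4 ± 15.7 CPM in BAM (1.59 ± 0.22, adjusted p = 3.34e-07), with its highest mean in BAM at E16.5 (116 CPM).

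Within the early R10 libraries most changes from E10.5 to E11.5 were falls. In microglia 15 of the 37 identifiers fell and 5 rose (8.26% of all genes called, 3.02% lower and 5.24% higher), with a median of -0.47, and in BAM 16 fell and 2 rose (4.42% of all genes called, 1.44% lower and 2.98% higher), with a median of -0.51, against 0.00 over all genes in both. Ldha fell in that day, at -1.13 ± 0.14 (adjusted p = 5.52e-07) in microglia and -0.93 ± 0.14 (adjusted p = 4.15e-05) in BAM, and so did Eno1, at -0.87 ± 0.16 (adjusted p = 0.000396) and -1.06 ± 0.16 (adjusted p = 6.58e-05). Ldhb rose by 2.32 ± 0.28 (adjusted p = 3.67e-07) in microglia, and by 1.30 ± 0.29 (adjusted p = 0.00517) in BAM. Slc2a5 rose by 1.02 ± 0.25 (adjusted p = 0.00819) in microglia, while in BAM it moved by -1.08 ± 0.27 (adjusted p = 0.0134), a call lost on leaving out either of BAM E11.5 replicates 1 and 2 (adjusted p = 0.0682 to 0.0687).

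From E10.5 to E18.5, 18 identifiers fell and 10 rose in microglia (35.3% of all genes called, 14.4% lower and 20.9% higher), and 21 fell and 9 rose in BAM (37.6%, 14.8% and 22.8%). Members' medians were -0.61 and -0.91, and the medians of all genes 0.29 and 0.29. In fits to the R10 libraries alone, E18.5 has 1 library of each population, whose spread is taken from the remaining groups. The members' medians there were -0.42 in microglia and -0.99 in BAM. With all libraries, the changes of the 2 populations share a sign and a call for 24 identifiers (17 lower and 7 higher in both). Slc2a5 was called in opposite directions. The share of all genes called alike in both populations was not computed. The contrast of the 2 changes was called for 11 identifiers (6.63% of all genes called, 3.55% lower and 3.08% higher): Hk1 and Pfkp changed less downward in BAM (1.15 and 0.96), and Slc2a5, Slc16a3, Pfkfb3, Pkm, Slc16a1, Hk3, Ldha, Slc2a8 and Pgk1 had negative contrasts. Without the R10 libraries at E18.5, 7 of the 11 contrasts were called. Of those lost there, Ldha had an adjusted p of 0.103, Slc2a8 0.0753, Pfkp 0.0674 and Pgk1 0.103, and the Pgk1 contrast was also lost on leaving out any 1 of BAM E10.5 replicates 1 and 2, or BAM E18.5 replicates 2 and 4, or microglia E10.5 replicates 2 and 3, or microglia E18.5 replicates 1 and 3 (adjusted p = 0.0534 to 0.0794).

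**Figure D5:**
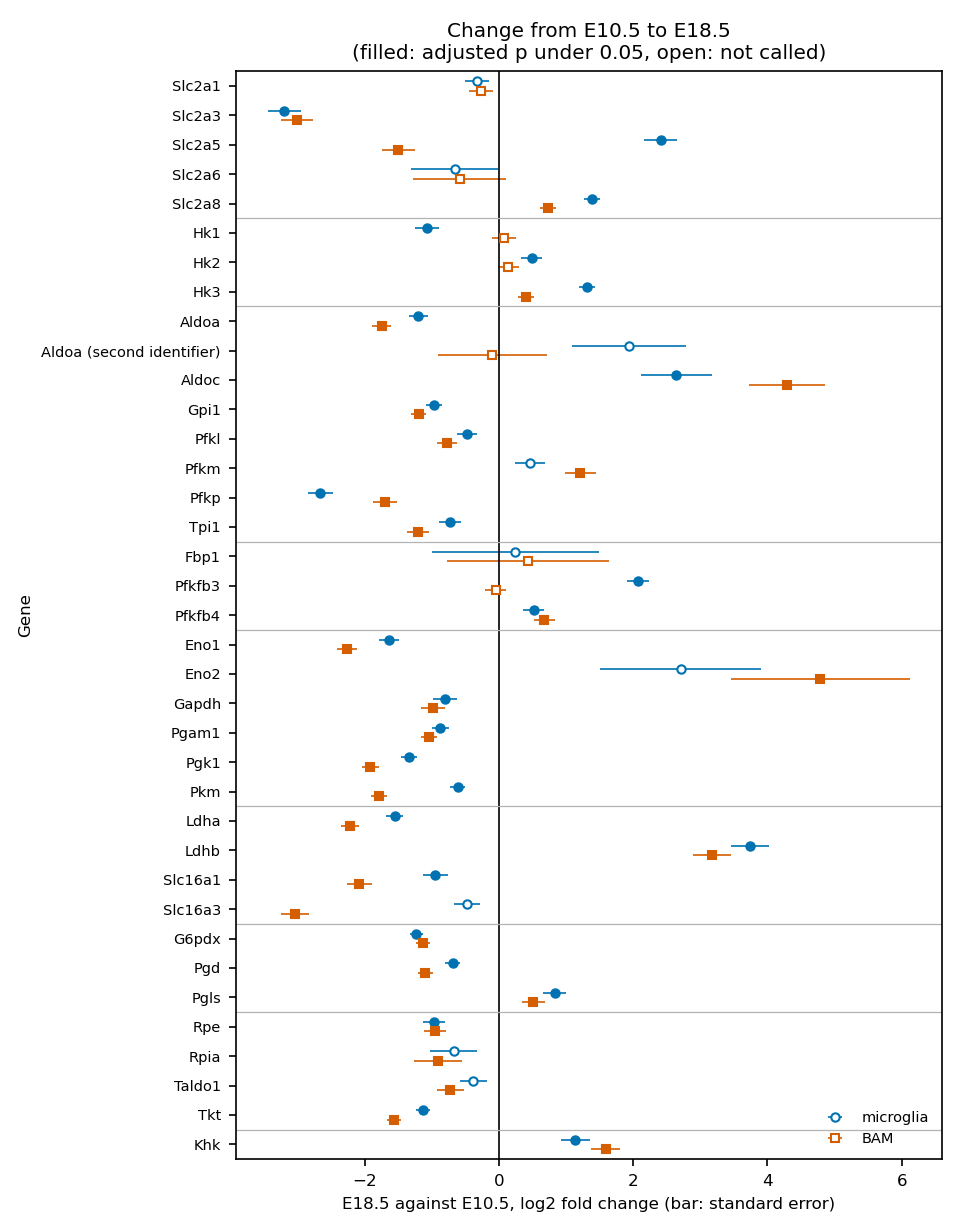
Log2 change from E10.5 to E18.5 (horizontal axis, bars are standard errors) of each identifier (rows, grouped by role) in microglia (circles) and BAM (squares). Filled symbols have an adjusted p under 0.05, and most filled symbols lie left of 0 (18 of 28 in microglia and 21 of 30 in BAM), with Ldhb, at 3.74 and 3.18, among those to the right.

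Between the end points E12.5 and E18.5 more members rose than fell in microglia, although the share of counts was lower at E14.5 and E16.5 than at either end. There 8 identifiers rose and 1 fell in microglia (6.74% of all genes called, 2.74% lower and 4.01% higher). Aldoc, Hk3, Pfkfb3, Pfkl, Slc16a1, Slc16a3, Slc2a5 and Slc2a8 rose and G6pdx fell, and the median of the 37 was 0.17. In BAM 8 rose and 9 fell (10.6% of all genes called, 5.32% lower and 5.24% higher), with a median of 0.03: Ldha (-0.64 ± 0.13, adjusted p = 0.000966), Pgk1 (-0.55 ± 0.13, adjusted p = 0.00272) and Slc2a3 (-1.11 ± 0.25, adjusted p = 0.00199) fell, and Hk1, Hk2, Slc2a1, Pfkl and Pfkfb3 were among those that rose. Replicate 1 of each population at E18.5 crosses the series in these comparisons. Without these R10 libraries 5 identifiers rose and 2 fell in microglia, and the share over all genes in that fit is not given here. The microglial rises of Slc2a5 (0.92 ± 0.26, adjusted p = 0.026) and Hk3 (0.46 ± 0.13, adjusted p = 0.0215) were among those lost there, at adjusted p = 0.15 and 0.171. The rise of Slc2a5 was also lost on leaving out any 1 of microglia E12.5 replicates 2 and 3, or microglia E18.5 replicates 1 and 2 (adjusted p = 0.0546 to 0.25), and that of Hk3 on leaving out any 1 of microglia E12.5 replicates 1, 2 and 3, or microglia E18.5 replicate 1 (adjusted p = 0.0592 to 0.119). The contrast of the changes was called for 5 identifiers (2.19% of all genes called, 1.23% lower and 0.961% higher), all negative: Slc16a1, Slc16a3, Pfkfb3, Pkm and Hk3. The Hk3 contrast (-0.75 ± 0.18, adjusted p = 0.0169) was lost without BAM E12.5 replicate 3, or microglia E12.5 replicate 1 (adjusted p = 0.06 to 0.0674).

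Other genes of carbohydrate metabolism moved as follows, each list given as a count and its median beside the percentages of all genes above. Of 15 targets of hypoxia-inducible factor outside the pathway, 5 rose and 0 fell in microglia from E10.5 to E18.5 (median 0.81), and 7 rose and 0 fell in BAM (median 0.88), while 5 were lower in BAM for the mean over stages and none higher. Kdm3a, a histone demethylase, rose by 0.98 ± 0.16 (adjusted p = 1.15e-05) in microglia and 0.73 ± 0.16 (adjusted p = 0.000503) in BAM, and P4ha1, a collagen prolyl hydroxylase, was lower in BAM, at -0.66 ± 0.07 (adjusted p = 6.78e-10).

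Among 18 regulators of glycolysis, 3 were higher and 5 lower in BAM for the mean (median 0.04). Mlxipl, which encodes the glucose-responsive factor ChREBP, was lower in BAM, at -3.35 ± 0.18 (adjusted p = 4.98e-17) and rose with stage in both, by 4.15 ± 0.40 (adjusted p = 2.66e-10) in microglia and 2.82 ± 0.39 (adjusted p = 4.21e-07) in BAM. Txnip, a thioredoxin-binding inhibitor of glucose uptake, was higher in BAM by 0.75 ± 0.07 (adjusted p = 3.34e-11) and rose by 1.72 ± 0.15 (adjusted p = 3.73e-11) and 1.92 ± 0.15 (adjusted p = 3.95e-12). Hif1a, the oxygen-regulated subunit itself, was lower in BAM, at -0.53 ± 0.07 (adjusted p = 1.55e-07) and fell in BAM, at -0.98 ± 0.15 (adjusted p = 3.25e-06).

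Of 14 genes of pyruvate entry and pyruvate dehydrogenase, which carry pyruvate into the citric acid cycle, 3 rose and 8 fell in microglia from E10.5 to E18.5 (median -0.57), and 3 rose and 7 fell in BAM (median -0.48). The kinase Pdk2, which switches the complex off, rose by 2.50 ± 0.24 (adjusted p = 3.73e-10) and 2.40 ± 0.24 (adjusted p = 6.92e-10), and the subunit Pdha1 moved by -1.31 ± 0.14 (adjusted p = 4.34e-09) and -1.18 ± 0.14 (adjusted p = 3.03e-08). The related kinase Pdk3 was lower in BAM, at -0.79 ± 0.07 (adjusted p = 4.4e-12). Of 25 tested genes of other sugar uptake and glycolysis isoforms, 3 were higher and 6 lower in BAM for the mean (median -0.07), among them the monocarboxylate transporter genes Slc16a6, at -1.42 ± 0.07 (adjusted p = 5.83e-18), and Slc16a7, at 0.97 ± 0.08 (adjusted p = 1.07e-12). Galm, which turns over the ring forms of galactose and glucose, was higher in BAM by 1.40 ± 0.12 (adjusted p = 1.38e-11).

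Of 17 tested genes of other NADPH and pentose phosphate functions, 4 were higher and 6 lower in BAM for the mean (median -0.06). The NADP-dependent isocitrate dehydrogenases Idh1 and Idh2 were higher in BAM by 0.82 ± 0.06 (adjusted p = 3.39e-14) and 0.81 ± 0.05 (adjusted p = 1.32e-15), and the oxidase subunits Ncf1 and Ncf4 lower, at -0.51 ± 0.05 (adjusted p = 4.16e-10) and -0.88 ± 0.09 (adjusted p = 5.05e-10). Cybb, the catalytic subunit of the phagocyte NADPH oxidase, moved by -1.75 ± 0.22 (adjusted p = 6.92e-08) in microglia and by 2.01 ± 0.22 (adjusted p = 4.45e-09) in BAM from E10.5 to E18.5. Mitosis genes fell beside the pathway: 19 of 20 were lower at E18.5 than at E10.5 in each population (medians -1.24 in microglia and -1.80 in BAM), and 14 of 20 were lower in BAM than in microglia at E18.5. For the mean over stages 6 were higher and 1 lower in BAM, and at E16.5 7 were higher and none lower. Of 20 immediate early and heat shock genes, which respond to handling of cells, 2 were higher and 10 lower in BAM for the mean, and 9 were lower and none higher at E18.5. The part of cell division or handling in the changes of the pathway was not tested.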

How the data were processed

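RNA was sequenced from 39 libraries of sorted embryonic microglia and BAM, made from 2 ng of RNA by a modified SMART-seq2 protocol, per the labels' protocols, and tools named in the submitters' processing notes are STAR and featureCounts on GRCm38, with versions not given in the sources used here. The deposited values are raw read counts per gene for 53379 identifiers, and the protocol does not mark strand, so overlapping genes cannot be told apart. A count of 2 occurred 49977 times in the table and a count of 1 only 21280 times, so intervals from counting may be too narrow.

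From the deposited counts, CPM was computed as counts over the library total. Groups were compared with edgeR 4.0.16 (R 4.3.3, limma 3.58.1): TMM scaling, filterByExpr (22061 genes kept, holding 99.973% of counts), 12 groups in one quasi-likelihood fit with 27 residual degrees of freedom, and Benjamini-Hochberg adjustment over all tested genes, with calls at 0.05. The method was tested on simulated data. For the mean over 6 stages it recovered 96 of 100 2-fold changes and 100 of 100 4-fold changes. At E14.5 it recovered 41 and 83 of 100, so a member not called at a single stage may still differ. All members are named by role. Values per library are given for members called for the mean with a log2 difference of at least 1 in size, called in one direction at all 6 stages, or called in a population-by-stage contrast of at least 1 in size. Other lists name up to 4 called genes with the smallest adjusted p and an average log2 CPM of at least 4. The members and lists were chosen with earlier results of these data known. Alternatives were relative log expression (RLE) scaling, no filter, DESeq2 1.42.0, only the groups compared, leaving out each library, a block of adjacent library numbers and leaving out the R10 libraries at E18.5. Fits to R10 libraries only, and the R10 against R8 check, were added after seeing the data. Figures and tables used Python 3.11.15 with pandas 2.3.3, numpy 2.4.6 and matplotlib 3.10.9. Promoters came from RefSeq (GRCm38.p6), with 35 members matched.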

Additional observations from a re-analysis of the deposited data

Results flagged for a closer look

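In groups of 4 libraries, 1 library stood apart from the rest for 6 of 141 gene and group pairs examined, and chance alone flags about 1 in 20. Pgd read 579.9 CPM in BAM E10.5 replicate 1 (the others 438.5 to 446.3), and Slc2a3 read 195 CPM in the same library (the others 129 to 136). Gapdh read 1992 CPM in microglia E18.5 replicate 3 (the others 1725 to 1764). In microglia E10.5 replicate 3, Pfkfb4 read 38.9 CPM (the others 48.2 to 49.6) and Aldoc 2.12 CPM (the others 4.34 to 4.73). Hk3 read 82.8 CPM in microglia E10.5 replicate 1 (the others 128 to 133).

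The change from E10.5 to E18.5 differed between BAM and microglia, by the test of the contrast itself, for 11 genes. The log2 contrasts, BAM change minus microglia change, were -3.91 for Slc2a5, -2.57 for Slc16a3, -2.12 for Pfkfb3, -1.17 for Pkm, -1.13 for Slc16a1, -0.91 for Hk3, -0.67 for Ldha, -0.66 for Slc2a8, -0.57 for Pgk1, 0.96 for Pfkp and 1.15 for Hk1. From E12.5 to E18.5 the contrasts called were -1.80 for Slc16a1, -1.14 for Pfkfb3, -1.13 for Slc16a3, -0.92 for Pkm and -0.75 for Hk3.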

How the results depend on the processing

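No called member changed direction in any of 4218 values under the alternatives, of which 3924 kept their call and 294 lost it. RLE scaling, no filter on low counts and fitting only the groups compared left every count of called members within 1.5 times its main value. DESeq2 called 8 members between populations at E10.5, where edgeR called 5, and 8 contrasts from E12.5, where edgeR called 5. A replicate block of adjacent library numbers, which the labels do not call pairs, gave 10 at E10.5 and 8 contrasts from E12.5. Deviations from the group mean of log2(CPM + 1) correlated positively in all 19 adjacent pairs (0.0045 to 0.31), at over 0.1 in 13 of them and in 2 of 4 at E10.5. Libraries without adjacent numbers were not compared in this way, so whether the numbers mark pairs was not tested. The main fit does not use them. At E10.5 Slc16a3 and Hk2 were lower in BAM in 4 of 4 adjacent pairs, as were many other members, among them Aldoa, Eno1, Ldha, Tkt and Tpi1. Hk3, Pfkfb3, Pgls and Slc2a8 were lower in BAM in 0 of 4, and the share over all genes was not computed. With the block the Slc16a3 difference at E10.5 was called (-0.52, adjusted p = 0.00698), as were those of Slc2a1, Pfkl, Ldha and G6pdx, and Hk2 kept its call (adjusted p = 0.00213), while for the mean over stages the call of Rpia was lost (adjusted p = 0.0996). Without the R10 libraries at E18.5, 7 contrasts from E10.5 were called, against 11. With R10 libraries only, which hold fewer samples, 3 members were called between populations at E10.5 and 9 at E18.5 (22 with all), 16 changed from E10.5 to E18.5 in microglia (28 with all) and 5 contrasts were called. Leaving out 1 library gave 3 to 8 calls between populations at E10.5, 9 to 16 at E11.5, 10 to 14 at E12.5, 12 to 17 at E14.5, 10 to 16 at E16.5, 19 to 22 at E18.5 and 27 to 29 for the mean. It gave 15 to 19 from E10.5 to E11.5 in microglia and 15 to 19 in BAM, 27 to 30 and 28 to 30 from E10.5 to E18.5, 6 to 9 and 12 to 17 from E12.5 to E18.5, 10 to 12 contrasts from E10.5 and 3 to 6 from E12.5. At E10.5 the count was 3 without microglia replicate 1 and 8 without BAM replicate 1, and the contrasts from E12.5 numbered 3 without microglia E12.5 replicate 1 and 3 without BAM E12.5 replicate 3. The cause was not tested. Depth limits Fbp1, Eno2, Rpia and early Aldoc.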
